A study of Mus musculus with 112 samples.

Results

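CBA/J and C3H/HeJ are related inbred mouse strains that were given the same amount of food on the control diet and the same smaller amount on caloric restriction (CR), and the question here is whether their epididymal white adipose tissue (WAT) changed by the same amount on CR. For each gene, the change on CR (CR minus control) in C3H/HeJ was taken from the change on CR in CBA/J. The comparison uses 32 of the 112 arrays of the series, 8 in each of 4 groups: CBA/J on CR, CBA/J on control diet, C3H/HeJ on CR and C3H/HeJ on control diet. All mice were males housed singly, were placed on their diets at 8 weeks of age and were sampled at 22 weeks after an overnight fast, and each array holds the WAT of 1 mouse. DBA/2J and B6C3F1/J (a hybrid of C57BL/6 and C3H mice) received the same 2 allotments and serve below as further strains for comparison. Values are log2 signals, so that a difference of 1 is a 2-fold difference in signal.

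WAT stores triacylglycerol in adipocytes and holds fibroblasts, progenitors, vessels and immune cells, chiefly macrophages, between them. Adipocytes also secrete hormones such as leptin, whose output follows the size of the fat stores, and they are held in a collagen matrix in which collagen VI is prominent. CR empties the stores and is known in this tissue for a rise of the genes of fatty acid synthesis and of mitochondria. CBA and C3H go back to the same cross, between Bagg albino and DBA mice, and C3H/HeJ carries an inactive Tlr4, the receptor for bacterial lipopolysaccharide. Because whole tissue was measured, fewer cells of a type and less RNA per cell cannot be told apart in any result below.

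The 32 array medians lay between 6.72 and 6.84, and pairs of arrays correlated with r between 0.917 and 0.997 across genes. Adipocyte markers, averaged over 13 genes, lay between 11.83 and 12.54 on all 32 arrays, against a median of 7.17 over all genes. The group of CBA/J CR mice was uneven. Averaged over 32 measured epididymis markers, replicate 5 of that group stood at 10.54, replicate 6 at 7.28, replicate 7 at 6.01 and replicate 8 at 5.80, and the other 4 CBA/J CR mice lay between 5.22 and 5.43. The CBA/J controls lay between 5.13 and 5.63, the C3H/HeJ CR mice between 5.08 and 5.44 and the C3H/HeJ controls between 5.13 and 5.39. No gene of the epididymis list passed the test for a difference between the strains, although the median difference over the list was 1.14. Without replicates 5 and 6 that median was 0.17. The typical SD of a gene between mice was 0.181 in the CBA/J CR group, 0.145 in CBA/J controls, 0.142 in C3H/HeJ CR mice and 0.147 in C3H/HeJ controls. The fit of the 2 strains was therefore repeated without CBA/J CR replicates 5 and 6.

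**Figure D1:**
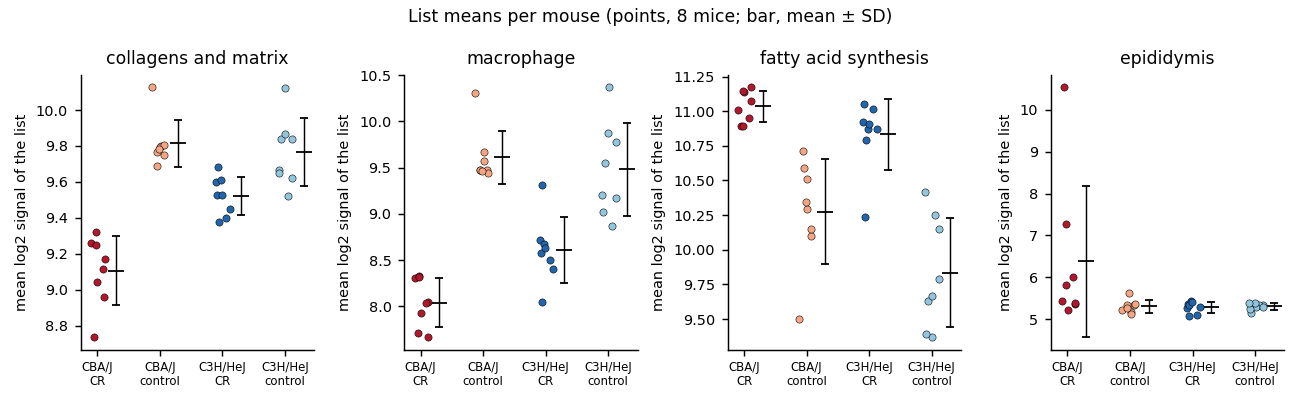
Mean log2 signal of 4 gene lists (vertical axes) in each mouse of the 4 groups; points are mice, and the bar beside them gives the mean and SD of 8 mice. CBA/J CR replicate 5 stands at 10.54 on the epididymis list, while for collagens and matrix all 8 CBA/J CR mice (8.74 to 9.32) lie below all 8 C3H/HeJ CR mice (9.37 to 9.68).

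The WAT of the 2 strains did not respond alike to the same restriction. Of 19938 genes, 406 (2.04%) passed the test for a difference of the responses (limma, Benjamini-Hochberg adjusted p under 0.05 over all genes), and 3084 had an unadjusted p under 0.05. The response was lower in CBA/J for 322 genes (1.62%), meaning that the gene fell more or rose less there, and higher in CBA/J for 84 genes (0.421%). Quantile normalization of the arrays gave 280 lower and 129 higher. Without CBA/J CR replicates 5 and 6 there were 627 genes (3.14%; 457 lower, 2.29%), which held 370 of the 406. The count was 261 without C3H/HeJ control replicate 2 and 677 without C3H/HeJ control replicate 3. The differences called ranged in size between 0.20 and 1.85 with a median of 0.52, and the median SE over all genes was 0.116.

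The larger change was in CBA/J for 292 of the 406 genes and in C3H/HeJ for 114. A fall in CBA/J with no call in C3H/HeJ was the most frequent pattern, with 211 genes, while 55 genes rose in CBA/J with no call in C3H/HeJ. For 66 genes the rise was called in C3H/HeJ and not in CBA/J, and for 22 genes a fall was called in C3H/HeJ and not in CBA/J. Both strains were called with opposite signs for 33 genes. On CR the strains differed for 3887 genes and on the control diet for 1194. Of the 406 genes, 324 differed between strains on CR and not on control diet, and 265 of these 324 were lower in CBA/J. Taken separately, CR changed 5203 genes in CBA/J (26.1%, with 11.7% rising and 14.4% falling) and 2984 genes in C3H/HeJ (15%, with 8.36% rising and 6.61% falling), and 970 of the rises and 988 of the falls were called in both strains. Across all genes the changes in the 2 strains correlated with r = 0.625, a description over 19938 genes that are not independent.

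**Figure D2:**
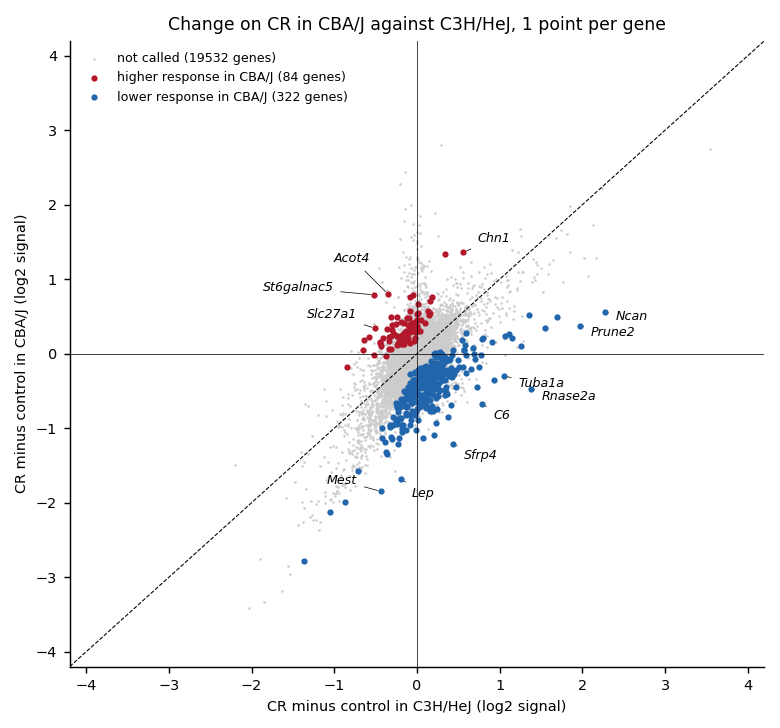
Change on CR in CBA/J (vertical axis, log2 signal) against that in C3H/HeJ (horizontal axis, log2 signal), with 1 point for each of 19938 genes and the dashed line at equal change. Of the 406 called genes, 322 lie below the line (blue) and 84 above it (red), and Lep lies far below 0 in CBA/J and close to 0 in C3H/HeJ.

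Leptin showed the clearest separation among the secreted products of the adipocyte. Lep, the gene of the hormone that reports fat stores to the brain, had a lowest, median and highest log2 signal of 9.65, 10.45 and 10.82 in CBA/J CR mice and 11.59, 12.01 and 12.24 in CBA/J controls. In C3H/HeJ it had 11.23, 11.80 and 12.10 in CR mice and 11.48, 11.92 and 12.37 in controls. All 8 CBA/J CR mice lay below every mouse of the other 3 groups, and these 3 groups overlapped. Lep fell by 1.69 in CBA/J (SE 0.15, adjusted p = 4.58e-09) and changed by -0.19 in C3H/HeJ (SE 0.15, adjusted p = 0.529). The difference of the responses was -1.49 (SE 0.22, adjusted p = 0.000328), and it was -1.48 without CBA/J CR replicates 5 and 6. The adipokines as a list were mixed. Over the 10 measured, Lep included, the difference was below 0 for 6, with a median of -0.16 against 0.02 over all genes. Adiponectin (Adipoq) had a difference of 0.04, with a 95% interval between -0.12 and 0.20. Angiotensinogen (Agt), the precursor of angiotensin, had 10.42, 10.80 and 10.96 in CBA/J CR mice and 9.996, 10.20 and 10.39 in CBA/J controls, against 9.45, 9.71 and 10.06 in C3H/HeJ CR mice and 9.38, 10.02 and 10.90 in C3H/HeJ controls. It was higher in every CBA/J CR mouse than in any CBA/J control or C3H/HeJ CR mouse, with a difference of 0.81 (SE 0.18, adjusted p = 0.0143). Of the 10 adipokines measured, Lep was the 1 with a lower response in CBA/J and Agt the 1 with a higher response. Over all genes the shares were 1.62% lower and 0.421% higher. In the fit without CBA/J CR replicates 5 and 6, 2 of the 10 had a lower response, against 2.29% of all genes. A higher response was called for 1 of the 10, against 170 of all 19938 genes.

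Because Lep had the smallest adjusted p of the adipokines, the 250 bases before its annotated start are shown, as given by RefSeq for the C57BL/6J reference (GRCm38.p6, chr6:29059971-29060220, plus strand); the bases of CBA/J and C3H/HeJ were not measured here. Capitals mark matches on either strand to a GC box (GGGCGG), a C/EBP site (TTGCGCAA, the palindrome bound by the C/EBP factors of adipocytes) and a TATA box core (TATAA, here overlapping its own reverse complement).
Lep: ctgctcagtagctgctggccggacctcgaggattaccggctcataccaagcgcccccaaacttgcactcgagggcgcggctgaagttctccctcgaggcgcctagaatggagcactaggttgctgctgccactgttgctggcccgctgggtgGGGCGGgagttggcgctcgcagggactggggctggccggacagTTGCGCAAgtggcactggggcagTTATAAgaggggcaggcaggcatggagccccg
The GC box begins 98 bases, the C/EBP site 55 bases and the TATA core 31 bases before the start, and no E-box (CACGTG) was found in this window. Over the same 250 bases of all 32851 RefSeq promoters, 32.7% hold the GC box letters, 0.164% the C/EBP site, 22.8% the TATA core and 6.02% the E-box. These matches describe the letters and carry no information on binding.

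Mest, Sfrp5 and Sfrp4 were among the 10 named and called genes with the lowest difference. Mest, an imprinted gene whose level follows the expansion of adipocytes, had 9.09, 10.62 and 11.49 in CBA/J CR mice and 12.14, 12.33 and 12.50 in CBA/J controls, against 11.73, 11.97 and 12.24 in C3H/HeJ CR mice and 11.65, 12.44 and 12.81 in C3H/HeJ controls. All CBA/J CR mice were below all other mice. The difference was -1.42 (SE 0.33, adjusted p = 0.0173). Mest was 1 of 2 of the 14 imprinted and growth-linked genes with a lower response in CBA/J, against 1.62% of all genes. The median difference of that list was 0.05. Sfrp5, which encodes a secreted inhibitor of Wnt signalling, fell in both strains, by 2.78 in CBA/J and by 1.36 in C3H/HeJ. Its difference of -1.42 (adjusted p = 0.0366) did not hold the call when any 1 of 10 arrays was left out, with an adjusted p up to 0.0636. Sfrp4, of the same family, had 6.40, 7.16 and 8.02 in CBA/J CR mice and 7.88, 8.21 and 9.09 in CBA/J controls, against 7.59, 8.22 and 8.72 in C3H/HeJ CR mice and 7.36, 7.73 and 8.17 in C3H/HeJ controls. It fell by 1.22 in CBA/J, changed by 0.44 in C3H/HeJ (adjusted p = 0.117), and the responses differed by -1.66 (SE 0.26, adjusted p = 0.000579).

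Nnmt, the methyltransferase that consumes nicotinamide and the methyl donor S-adenosylmethionine, fell in CBA/J and did not pass the test in C3H/HeJ. It had 8.97, 9.61 and 9.88 in CBA/J CR mice and 10.21, 10.43 and 10.73 in CBA/J controls, against 10.66, 11 and 11.36 in C3H/HeJ CR mice and 10.23, 10.84 and 11.07 in C3H/HeJ controls. No CBA/J CR mouse reached the lowest mouse of any other group, and the responses differed by -1.16 (SE 0.16, adjusted p = 0.000328). Igfbp5, a binding protein that holds insulin-like growth factors, had 9.27, 9.75 and 9.92 in CBA/J CR mice and 9.99, 10.32 and 10.45 in CBA/J controls, against 10.47, 10.80 and 10.98 in C3H/HeJ CR mice and 10.38, 10.54 and 10.76 in C3H/HeJ controls. It differed by -0.84 (SE 0.12, adjusted p = 0.000328), and Igfbp4 by -0.58 (adjusted p = 0.016). These were the 2 of 18 genes of insulin and IGF signalling that passed the test, where 1.62% of all genes had a lower response in CBA/J. Cavin3, a coat protein of caveolae, the small pits of the adipocyte membrane, fell by 0.48 in CBA/J and rose by 0.34 in C3H/HeJ. Its difference of -0.82 (SE 0.11, adjusted p = 0.000222) shared the smallest adjusted p of all genes with the complement gene C6. Of 15 genes of lipolysis and the lipid droplet, the droplet coat protein Plin3 alone passed the test (-0.35, adjusted p = 0.0138), against 2.04% of all genes.

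**Figure D3:**
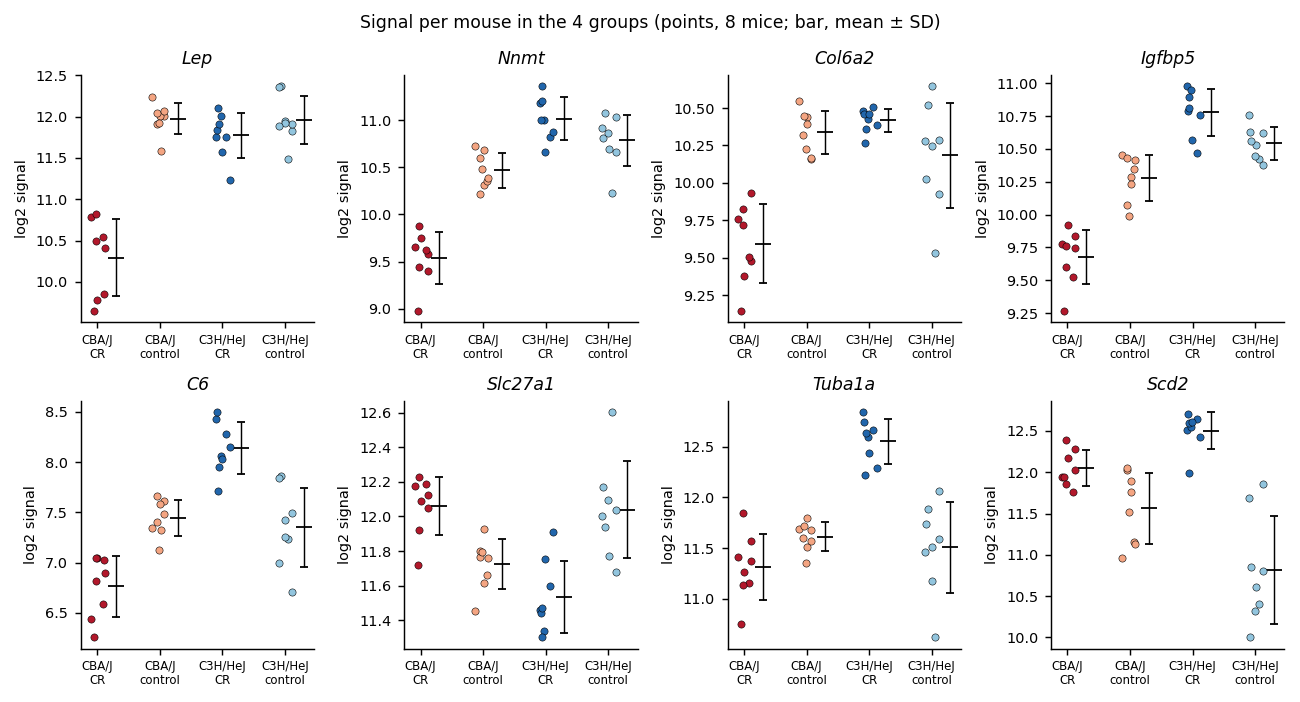
Log2 signal (vertical axes) of 8 genes in each mouse of the 4 groups; points are mice, and the bar beside them gives the mean and SD of 8 mice. In Lep, Nnmt, Col6a2, Igfbp5 and C6 all 8 CBA/J CR mice lie below all CBA/J controls and all C3H/HeJ CR mice, and in Tuba1a and Scd2 all 8 C3H/HeJ CR mice lie above all C3H/HeJ controls.

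Transcripts of the extracellular matrix fell in CBA/J far more than in C3H/HeJ. Of 27 genes of collagens and matrix, 9 passed the test with a lower response in CBA/J, where 1.62% of all genes did, and none with a higher one. CR lowered 23 of the 27 in CBA/J (against 14.4% of all genes) and 5 in C3H/HeJ (against 6.61% of all genes). The median change was -0.70 in CBA/J and -0.11 in C3H/HeJ, and the median difference was -0.42 against 0.02 over all genes. Without CBA/J CR replicates 5 and 6, 13 of the 27 passed the test with a lower response, against 2.29% of all genes, and the median difference was -0.40. The 3 chains of collagen VI, which are built into the same heterotrimer, all belonged to the 9. Col6a2 had 9.14, 9.61 and 9.93 in CBA/J CR mice and 10.16, 10.36 and 10.55 in CBA/J controls, against 10.27, 10.44 and 10.51 in C3H/HeJ CR mice and 9.53, 10.26 and 10.65 in C3H/HeJ controls. All 8 CBA/J CR mice were below all mice of the other CR group and below all CBA/J controls, and the 2 control groups overlapped. Col6a2 differed by -0.98 (SE 0.16, adjusted p = 0.000745), Col6a1 by -0.82 (SE 0.15, adjusted p = 0.00337) and Col6a3 by -0.69 (SE 0.13, adjusted p = 0.00284). The other 6 were the fibrillar collagen chains Col1a2, Col3a1, Col5a2 and Col5a3, the adhesive glycoprotein fibronectin (Fn1, -0.90, adjusted p = 0.0256) and Loxl1 (-0.70, adjusted p = 0.014), an enzyme that crosslinks elastin.

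Since the 3 collagen VI genes moved together, the 250 bases before their annotated starts are given from RefSeq, with the strand read 5′ to 3′ along the gene. Col6a1 (chr10:76726045-76726294, minus strand) and Col6a2 (chr10:76623631-76623880, minus strand, the farther upstream of 2 annotated starts) lie on the same chromosome, and Col6a3 lies elsewhere (chr1:90843972-90844221, minus strand). Capitals mark the only match among the 4 motifs named for Lep.
Col6a1: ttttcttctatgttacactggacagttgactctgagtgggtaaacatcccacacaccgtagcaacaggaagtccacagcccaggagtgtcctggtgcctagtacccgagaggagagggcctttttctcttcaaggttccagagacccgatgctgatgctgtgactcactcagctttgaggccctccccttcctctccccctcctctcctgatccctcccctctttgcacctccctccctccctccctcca
Col6a2: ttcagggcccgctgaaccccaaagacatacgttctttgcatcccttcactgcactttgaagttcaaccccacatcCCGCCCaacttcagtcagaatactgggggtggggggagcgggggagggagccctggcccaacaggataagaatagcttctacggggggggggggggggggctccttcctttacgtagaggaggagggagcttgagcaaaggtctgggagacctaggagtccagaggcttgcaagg
Col6a3: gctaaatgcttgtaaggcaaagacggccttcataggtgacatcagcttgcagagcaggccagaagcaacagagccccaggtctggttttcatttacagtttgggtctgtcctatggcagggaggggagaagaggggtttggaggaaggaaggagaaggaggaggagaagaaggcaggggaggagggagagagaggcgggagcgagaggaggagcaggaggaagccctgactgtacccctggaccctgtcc
The GC box of Col6a2, read here as its reverse complement, begins 175 bases before the start, and the windows of Col6a1 and Col6a3 hold none of the 4 motifs.

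The list of fibroblast and progenitor markers showed the same direction. It is not independent of the matrix, since it holds genes of matrix proteins such as Lum. Of 8 measured markers of adipose fibroblasts and progenitors, 4 passed the test with a lower response in CBA/J (Lum, Dpt, Cd34 and Pi16), against 1.62% of all genes, and the median difference was -0.38. The call of Pi16 was lost without CBA/J CR replicates 5 and 6, and when any 1 of 13 arrays was left out. The mean over the list lay between 9.58 and 9.83 in CBA/J CR mice and between 10.03 and 10.47 in CBA/J controls, which did not overlap, and between 9.68 and 10.02 in C3H/HeJ CR mice and 9.72 and 10.19 in C3H/HeJ controls, which did. Lumican (Lum), a proteoglycan that orders collagen fibrils, had 8.36, 9.06 and 9.36 in CBA/J CR mice and 9.76, 10.08 and 10.62 in CBA/J controls, against 8.94, 9.34 and 9.58 in C3H/HeJ CR mice and 8.45, 9.07 and 9.81 in C3H/HeJ controls. The CBA/J controls stood highest, and Lum differed between the control groups by 1.01 (adjusted p = 2.61e-05) and between the CR groups by -0.29 (adjusted p = 0.178). The responses differed by -1.30 (SE 0.21, adjusted p = 0.000745). Platelet-derived growth factor receptor alpha (Pdgfra), the defining receptor of adipose progenitors, differed by -0.14 with a 95% interval between -0.48 and 0.19. The part that a change of cell numbers had in the matrix genes was not tested.

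Macrophage markers fell in both strains. CR lowered 25 of 27 markers in CBA/J (against 14.4% of all genes) and 22 of 27 in C3H/HeJ (against 6.61% of all genes), with median changes of -1.53 in CBA/J and -0.79 in C3H/HeJ. The difference was below 0 for 26 of the 27, with a median of -0.70. However, the mice of a group varied widely and 1 marker, Cd68, passed the test, against 2.04% of all genes. Cd68, a lysosomal glycoprotein of macrophages, had 9.05, 9.55 and 10.10 in CBA/J CR mice and 11.54, 11.65 and 12.37 in CBA/J controls, against 9.90, 10.47 and 11.18 in C3H/HeJ CR mice and 10.80, 11.34 and 12.48 in C3H/HeJ controls. CBA/J CR and control mice did not overlap, whereas the C3H/HeJ groups did. The difference for Cd68 was -1.07 (SE 0.28, adjusted p = 0.0344), and the call was lost when any 1 of 11 arrays was left out, with an adjusted p up to 0.0625. Gpnmb, a marker of lipid-laden macrophages, changed by -3.33 in CBA/J and by -1.85 in C3H/HeJ, and its difference of -1.48 missed the threshold (adjusted p = 0.0549, 95% interval between -2.34 and -0.63). Without CBA/J CR replicates 5 and 6, 3 of the 27 markers passed with a lower response in CBA/J, against 2.29% of all genes.

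C6 and Lacc1, immune genes outside the macrophage list, were called with opposite signs in the 2 strains. C6, a component of the complement attack complex, had 6.26, 6.86 and 7.05 in CBA/J CR mice and 7.13, 7.44 and 7.66 in CBA/J controls, against 7.72, 8.10 and 8.50 in C3H/HeJ CR mice and 6.71, 7.34 and 7.86 in C3H/HeJ controls. The CBA/J CR mice lay below all CBA/J controls, and 7 of the 8 C3H/HeJ CR mice lay above all C3H/HeJ controls. C6 fell by 0.68 in CBA/J and rose by 0.79 in C3H/HeJ, a difference of -1.47 (SE 0.20, adjusted p = 0.000222). Rnase2a, of the eosinophil-associated ribonuclease family whose members are near-identical, had the largest difference among the 406 called genes at -1.85 (SE 0.32, adjusted p = 0.00175). It had 7.42, 8.33 and 8.57 in CBA/J CR mice and 7.95, 8.54 and 9.36 in CBA/J controls, against 7.87, 8.63 and 9.45 in C3H/HeJ CR mice and 6.45, 7.29 and 7.84 in C3H/HeJ controls. The C3H/HeJ controls had the lowest median and lay below all C3H/HeJ CR mice and all CBA/J controls, while their range overlapped that of the CBA/J CR mice. Lacc1, an enzyme of macrophage metabolism, fell by 0.69 in CBA/J and rose by 0.41 in C3H/HeJ (-1.10, adjusted p = 0.000745). Vsig4, a complement receptor of resident macrophages, fell by 0.85 in CBA/J and changed by 0.37 in C3H/HeJ (-1.22, adjusted p = 0.021). Of 9 mast cell markers, the proteases Tpsab1 (-0.75, adjusted p = 0.018) and Cma1 (-0.46, adjusted p = 0.0259) had a lower response in CBA/J (against 1.62% of all genes), and the median difference of the 9 was -0.46. No marker of B cells, neutrophils or endothelium passed the test.

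CR raised 14 of 22 genes of fatty acid synthesis in CBA/J and 16 in C3H/HeJ, where 11.7% of all genes rose in CBA/J and 8.36% in C3H/HeJ. Of the 22, 13 rose in both strains, with median changes of 0.88 in CBA/J and 0.73 in C3H/HeJ. The median of the gene-wise differences was -0.25, of the opposite sign to the difference of these medians. The mean over the list lay between 10.89 and 11.17 in CBA/J CR mice and between 9.50 and 10.71 in CBA/J controls, against 10.24 to 11.05 in C3H/HeJ CR mice and 9.37 to 10.41 in C3H/HeJ controls. The lowest C3H/HeJ CR value, 10.24, belonged to replicate 4. One gene of the 22 passed the test, against 2.04% of all genes. Scd2, a desaturase that makes monounsaturated fatty acids, had 11.76, 11.99 and 12.40 in CBA/J CR mice and 10.96, 11.64 and 12.05 in CBA/J controls, against 11.99, 12.57 and 12.71 in C3H/HeJ CR mice and 10.002, 10.70 and 11.85 in C3H/HeJ controls. It rose by 1.69 in C3H/HeJ and changed by 0.49 in CBA/J (adjusted p = 0.0697), a difference of -1.20 (SE 0.28, adjusted p = 0.018). Without CBA/J CR replicates 5 to 8 it missed the threshold (adjusted p = 0.0667). In cholesterol synthesis, 13 of 19 genes rose in CBA/J and 15 in C3H/HeJ, and 13 rose in both. The sterol desaturase Sc5d was the 1 of the 19 to pass the test (-0.59, adjusted p = 0.0272), against 2.04% of all genes.

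The white adipose genes that the study measured by qPCR changed the same way in both strains and, apart from Cd68, none passed the test. Acetyl-CoA carboxylase (Acaca), which makes the building block of fatty acids, rose by 0.96 in CBA/J and 1.39 in C3H/HeJ. The 95% interval of its difference lay between -1.20 and 0.33, a span that includes 0 and reaches the difference found for Scd2. Malic enzyme (Me1), a source of NADPH, rose by 0.88 in CBA/J and 1.21 in C3H/HeJ (interval between -0.88 and 0.20). The insulin-sensitive glucose transporter Slc2a4 rose by 0.76 in CBA/J and 0.95 in C3H/HeJ (interval between -0.61 and 0.25). The narrowest interval of this set was that of Ndufs4, a subunit of respiratory complex I, between -0.20 and 0.29. Elovl3, a fatty acid elongase outside that set, rose by 2.74 in CBA/J and 3.54 in C3H/HeJ, and its interval lay between -2.11 and 0.51.

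Slc27a1, Acot4 and Acsm5, enzymes and carriers of fatty acids that belong to none of the lists, had a higher response in CBA/J. None of the 22 genes of fatty acid synthesis, 19 of beta-oxidation and 15 of triacylglycerol synthesis had a higher response there with all arrays. Without CBA/J CR replicates 5 and 6, 2 of the 15 triacylglycerol genes did, against 170 of all 19938 genes. In that fit 2 of the 19 beta-oxidation genes and 1 of the 22 synthesis genes had a lower response, against 2.29% of all genes. Slc27a1, which encodes fatty acid transport protein FATP1, had 11.72, 12.11 and 12.23 in CBA/J CR mice and 11.45, 11.76 and 11.93 in CBA/J controls, against 11.30, 11.46 and 11.91 in C3H/HeJ CR mice and 11.68, 12.02 and 12.60 in C3H/HeJ controls. All 4 ranges overlapped, but the order of the diets was reversed between the strains. Slc27a1 rose by 0.34 in CBA/J (adjusted p = 0.0118) and fell by 0.50 in C3H/HeJ (adjusted p = 0.000659), a difference of 0.84 (SE 0.14, adjusted p = 0.00101). Acot4, a thioesterase of peroxisomes, had 8.11, 8.96 and 9.14 in CBA/J CR mice and 7.35, 8.18 and 8.31 in CBA/J controls, against 7.23, 7.70 and 7.88 in C3H/HeJ CR mice and 7.25, 7.94 and 8.57 in C3H/HeJ controls. Every CBA/J CR mouse exceeded every C3H/HeJ CR mouse, with a difference of the responses of 1.15 (SE 0.22, adjusted p = 0.00446). Acsm5, a medium-chain acyl-CoA synthetase of mitochondria, differed by 0.85 (adjusted p = 0.0207). Pdk2, a kinase that switches off pyruvate dehydrogenase, rose by 0.24 in CBA/J and fell by 0.32 in C3H/HeJ (0.56, adjusted p = 0.014). It was the 1 gene of 27 in the pyruvate dehydrogenase and citric acid cycle list to pass, against 2.04% of all genes.

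In the lists of respiration, the proteasome and the mitochondrial ribosome, 1 gene passed the test for a difference of the strains, where 2.04% of all genes did. CR raised 30 of 34 genes of complex I in CBA/J (against 11.7% of all genes) and 25 in C3H/HeJ (against 8.36% of all genes), with median changes of 0.34 in CBA/J and 0.28 in C3H/HeJ, and none of them passed the test for a difference. For complexes III and IV and ATP synthase the medians were 0.33 in CBA/J and 0.30 in C3H/HeJ, and again 0 of 36 passed. The proteasome gave 0.34 in CBA/J and 0.27 in C3H/HeJ with 0 of 31. In the mitochondrial ribosome 1 of 40 passed, with medians of 0.24 in CBA/J and 0.27 in C3H/HeJ. In all 4 lists the median difference lay between 0.00 and 0.05, beside 0.02 over all genes. It lay between 0.03 and 0.09 without CBA/J CR replicates 5 and 6 (0.03 over all genes) and between 0.08 and 0.14 without CBA/J CR replicates 5 to 8 (0.02 over all genes).

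**Figure D4:**
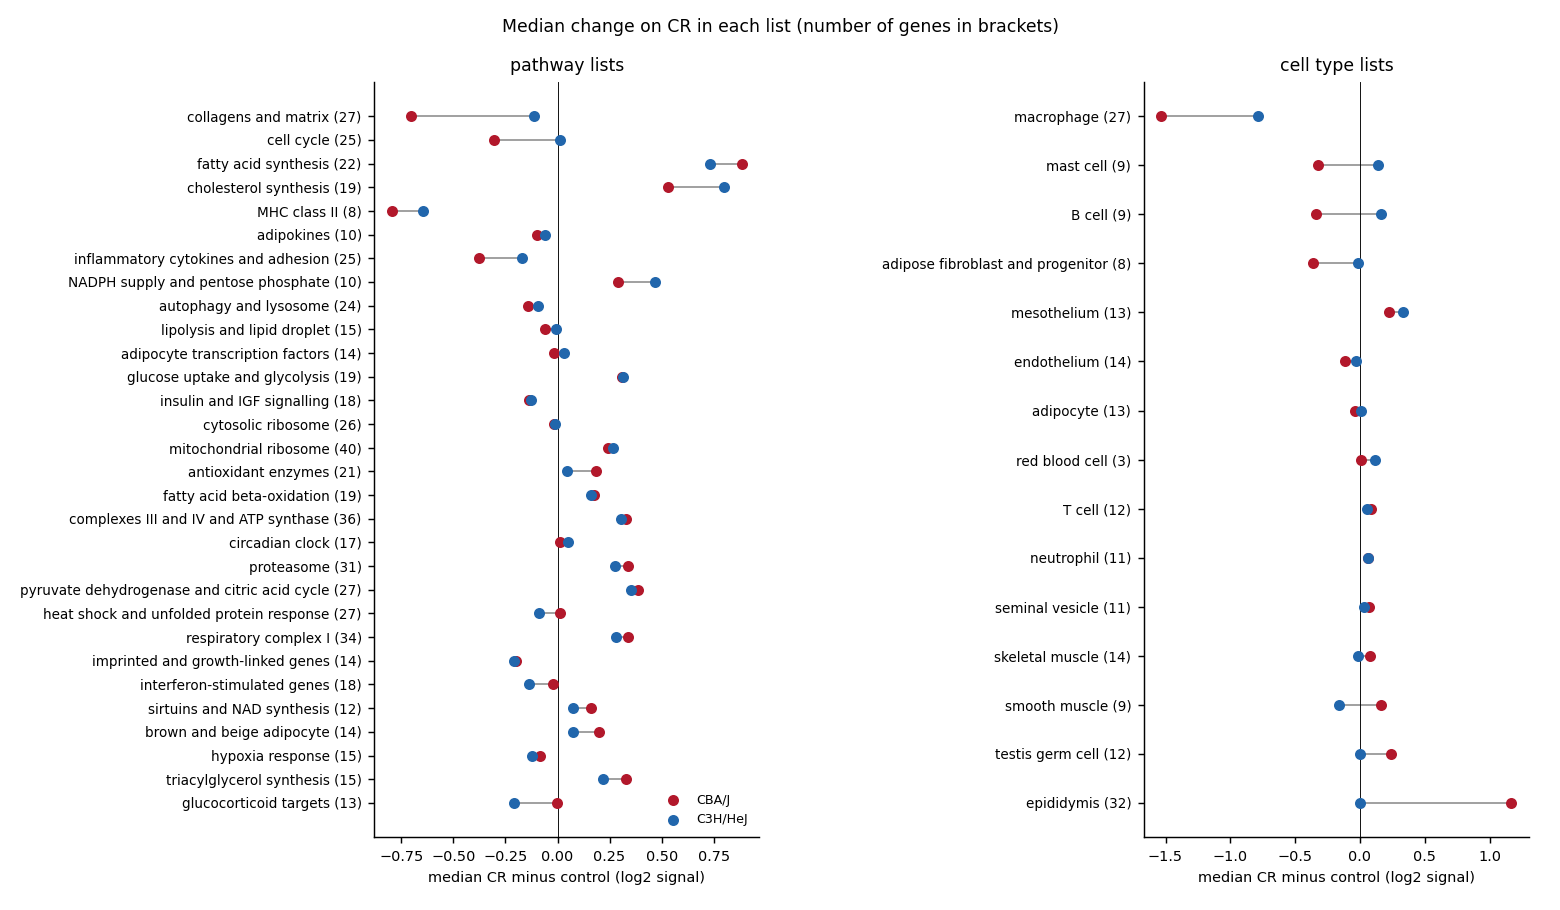
Median change on CR (horizontal axes, log2 signal) over the genes of each of 30 pathway lists and 15 cell type lists, with CBA/J in red, C3H/HeJ in blue and the number of measured genes in brackets; lists run by their median difference. The dots lie close together for respiratory and proteasome lists and apart for collagens and matrix (-0.70 in CBA/J, -0.11 in C3H/HeJ), macrophage (-1.53 in CBA/J, -0.79 in C3H/HeJ) and epididymis (1.17 in CBA/J, -0.00 in C3H/HeJ), and the last rests on the CBA/J CR mice with high epididymis markers.

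Some genes rose in C3H/HeJ and had a smaller change in CBA/J. Tuba1a, an alpha-tubulin of the cytoskeleton, had 10.75, 11.32 and 11.85 in CBA/J CR mice and 11.35, 11.64 and 11.80 in CBA/J controls, against 12.22, 12.62 and 12.84 in C3H/HeJ CR mice and 10.62, 11.55 and 12.06 in C3H/HeJ controls. All 8 C3H/HeJ CR mice were above every other mouse, and the difference was -1.35 (SE 0.21, adjusted p = 0.000494). The tubulin genes are close in sequence, which can blur probe sets. Ncan, neurocan, a chondroitin sulphate proteoglycan best known from brain matrix, rose by 2.27 in C3H/HeJ and changed by 0.55 in CBA/J (adjusted p = 0.15), a difference of -1.72 (SE 0.40, adjusted p = 0.017). Its lowest, median and highest values were 9.02, 10.31 and 11.08 in CBA/J CR mice and 8.62, 9.82 and 10.54 in CBA/J controls, against 9.97, 11.27 and 11.43 in C3H/HeJ CR mice and 7.91, 8.78 and 10.08 in C3H/HeJ controls. The lowest C3H/HeJ CR mouse, replicate 4, was the only one of that group within the range of the C3H/HeJ controls. Prune2 rose by 1.97 in C3H/HeJ and changed by 0.38 in CBA/J (-1.59, SE 0.31, adjusted p = 0.00495). Olfr1388, named as an olfactory receptor gene, rose by 1.55 in C3H/HeJ and changed by 0.34 in CBA/J (-1.21, SE 0.20, adjusted p = 0.00101). Among genes known from earlier results of these data, Tmem45a fell by 0.22 in CBA/J and rose by 0.30 in C3H/HeJ (-0.52, adjusted p = 0.00311), and Gypc, glycophorin C of the cell membrane, differed by -0.58 (adjusted p = 0.0158).

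DBA/2J and B6C3F1/J, fed the same allotments, set these differences in a wider frame. All pairs below share arrays, so their values stand side by side and are not independent. Lep changed by -0.34 in DBA/2J (SE 0.12) and -0.39 in B6C3F1/J (SE 0.12), both near the -0.19 of C3H/HeJ and far from the -1.69 of CBA/J. CBA/J differed from DBA/2J by -1.34 (adjusted p = 0.000832) and from B6C3F1/J by -1.29 (adjusted p = 0.000377). Nnmt likewise had its lowest change in CBA/J, with changes of -0.93 in CBA/J, 0.23 in C3H/HeJ, 0.30 in DBA/2J and 0.17 in B6C3F1/J. CBA/J differed for Nnmt from DBA/2J (adjusted p = 0.00019) and from B6C3F1/J (adjusted p = 0.000117). Igfbp5, Cavin3 and Col6a2 also passed the test for CBA/J against each of the other 3 strains, and for none of the 5 genes did C3H/HeJ differ from DBA/2J or B6C3F1/J at the threshold.

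Another set split the 4 strains differently. Ncan changed by 0.55 in CBA/J, 2.27 in C3H/HeJ, 0.23 in DBA/2J and 2.33 in B6C3F1/J. C3H/HeJ differed from DBA/2J by 2.04 (SE 0.34, adjusted p = 0.00438), and CBA/J from B6C3F1/J by -1.78 (SE 0.34, adjusted p = 0.00249). CBA/J and DBA/2J were not separated for Ncan (0.32, SE 0.36, adjusted p = 0.856), and neither were C3H/HeJ and B6C3F1/J (-0.06, SE 0.32, adjusted p = 0.952). Prune2, Olfr1388 and Tuba1a gave the same set of calls. For Prune2 the changes were 0.38 in CBA/J, 1.97 in C3H/HeJ, 0.38 in DBA/2J and 2.30 in B6C3F1/J. B6C3F1/J inherits a C3H genome from one parent, which is given here as background only.

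**Figure D5:**
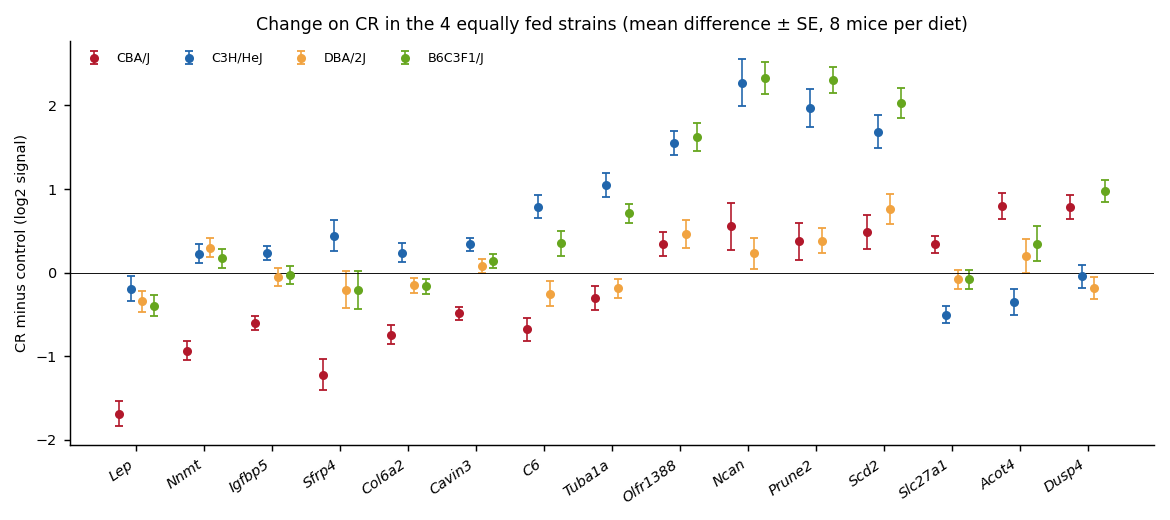
Change on CR (vertical axis, log2 signal, mean difference and SE from 8 mice per diet) of 15 genes in CBA/J, C3H/HeJ, DBA/2J and B6C3F1/J. For Lep, Nnmt and Col6a2 the CBA/J value lies below the other 3 strains, and for Ncan, Prune2, Olfr1388 and Scd2 the C3H/HeJ and B6C3F1/J values lie above those of CBA/J and DBA/2J.

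Counted over all genes, the responses of CBA/J and DBA/2J differed for 485 genes (2.43%) and those of CBA/J and B6C3F1/J for 995 (4.99%). C3H/HeJ and DBA/2J differed for 39 genes (0.196%), and C3H/HeJ and B6C3F1/J for 5 genes (0.0251%, with 2504 genes at an unadjusted p under 0.05). DBA/2J and B6C3F1/J differed for 1825 genes (9.15%). A lower response in CBA/J prevailed in each of its 3 pairs, with 322 of 406 genes against C3H/HeJ, 419 of 485 against DBA/2J and 753 of 995 against B6C3F1/J.

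Of the 33 genes with called changes of opposite sign, 27 fell in CBA/J and rose in C3H/HeJ and 6 rose in CBA/J and fell in C3H/HeJ. Besides C6, Slc27a1, Cavin3 and Lacc1, they included Cbr2, a carbonyl reductase, which fell by 0.44 in CBA/J and rose by 0.73 in C3H/HeJ. Its values were 8.88, 9.25 and 9.45 in CBA/J CR mice and 9.32, 9.75 and 9.90 in CBA/J controls, against 9.91, 10.41 and 10.93 in C3H/HeJ CR mice and 9.35, 9.72 and 9.98 in C3H/HeJ controls. The control groups had nearly the same median, and no CBA/J CR mouse reached the lowest C3H/HeJ CR mouse (-1.17, SE 0.17, adjusted p = 0.000393). Ube2c, which hands ubiquitin to targets in mitosis, fell by 0.45 in CBA/J and rose by 0.47 in C3H/HeJ (-0.92, adjusted p = 0.000864). No gene among 25 of the cell cycle list passed the test, with median changes of -0.30 in CBA/J and 0.01 in C3H/HeJ. F2r, the thrombin receptor, differed by -0.79 (adjusted p = 0.000864), Sync, an intermediate filament protein, by -0.89 (adjusted p = 0.000436), and Adam23, a disintegrin without protease activity, by -0.88 (adjusted p = 0.00057). Ndn, the imprinted growth suppressor necdin, fell by 0.41 in CBA/J and rose by 0.25 in C3H/HeJ (-0.66, adjusted p = 0.000893).

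Among the remaining named genes with a higher response in CBA/J, St6galnac5, a sialyltransferase that acts on gangliosides, had the largest difference at 1.30 (SE 0.29, adjusted p = 0.0129). It had 7.00, 8.15 and 8.52 in CBA/J CR mice and 6.93, 7.20 and 7.76 in CBA/J controls, against 6.64, 6.87 and 7.27 in C3H/HeJ CR mice and 6.69, 7.31 and 8.53 in C3H/HeJ controls. All 4 ranges overlapped, and the lowest CBA/J CR mouse, at 7.00, lay below the highest C3H/HeJ CR mouse, at 7.27. The highest C3H/HeJ control, at 8.53, reached the level of the highest CBA/J CR mouse. Chn1, an activator of Rac GTP hydrolysis, rose in both strains, by 1.36 in CBA/J and 0.56 in C3H/HeJ (0.80, adjusted p = 0.0141), and in each strain every CR mouse exceeded every control. Dusp4, a phosphatase of MAP kinases, rose by 0.79 in CBA/J and changed by -0.04 in C3H/HeJ (0.83, adjusted p = 0.0222). Clmn rose by 0.33 in CBA/J and fell by 0.36 in C3H/HeJ (0.69, SE 0.11, adjusted p = 0.000864). Tcim differed by 0.82 (adjusted p = 0.014) and fell by 0.64 in C3H/HeJ, where all control mice stood above all CBA/J controls. Ivns1abp, a kelch-repeat protein, fell by 0.58 in C3H/HeJ and changed by 0.22 in CBA/J (0.79, adjusted p = 0.00605).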

How the data were processed

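WAT was profiled on Affymetrix Mouse Gene 1.0 ST arrays, and the authors deposited log2 signals per probe set made with gene-level RMA-Sketch in Expression Console, a procedure of background correction, quantile-type scaling between arrays and probe summarisation. Its version and the set of arrays scaled as one are not given in the sources used here. Of 35556 probe sets, 21789 carry 1 gene symbol in the platform annotation (12146 have none listed and 1621 several), and the brightest probe set per symbol gave 19938 genes. Groups came from the sample titles. limma (3.58.1, R 4.3.3) was fitted to the 4 groups with no further normalization, and p-values were adjusted by Benjamini-Hochberg over all genes (threshold 0.05). Each array is a separate mouse. No array was a duplicate of another, with no pair correlated above 0.9999. On simulated data for this contrast over 19938 genes, 60 of 100 genes changed by 0.5 and 96 of 100 changed by 1 (log2) were recovered in the same run, with 9 calls among the unchanged genes. The simulated noise was normal, independent between genes and of the same SD in all 4 groups. It therefore left out the wider spread and the distant arrays of the CBA/J CR group. Same-numbered arrays of different groups did not deviate together in every pair, so numbers were not used as pairs. The genes named include the 12 largest differences in each direction among genes whose highest group mean lay above the median of all genes. These also had an adjusted p under 0.05 with all arrays and without CBA/J CR replicates 5 and 6. Also named are the 5 smallest p in each direction, up to 4 members of each list and up to 10 genes with opposite called changes. The qPCR genes of the study and 8 genes known earlier were added. Further list members and the genes with printed promoters were named after their values were seen. The 45 lists hold 858 genes, 788 of them measured. The comparison, the lists and the rules were chosen with earlier results of these data known. Alternatives changed the model, filter, probe rule, normalization, weights, scale and arrays. Plots used matplotlib 3.10.9 with pandas 2.3.3.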

Additional observations from a re-analysis of the deposited data

Results flagged for a closer look

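The responses to CR differed between CBA/J and C3H/HeJ for 406 genes, by the test of the difference itself. The named genes with a higher response in CBA/J were St6galnac5 (1.30), Acot4 (1.15), Mpzl2 (1.00), Acsm5 (0.85), Slc27a1 (0.84), Dusp4 (0.83), Tcim (0.82), Agt (0.81), Chn1 (0.80), Ivns1abp (0.79), Mettl7a1 (0.69), Clmn (0.69) and Phf1 (0.35), as differences in log2 signal. Those with a lower response in CBA/J were Rnase2a (-1.85), Ncan (-1.72), Sfrp4 (-1.66), Prune2 (-1.59), Lep (-1.49), C6 (-1.47), Mest (-1.42), Sfrp5 (-1.42), Tuba1a (-1.35), Lum (-1.30), Vsig4 (-1.22), Olfr1388 (-1.21), Cbr2 (-1.17), Nnmt (-1.16), Lacc1 (-1.10), Ube2c (-0.92), Sync (-0.89), Adam23 (-0.88), Igfbp5 (-0.84), Cavin3 (-0.82) and F2r (-0.79). Adjusted p-values ranged between 0.000222 for Cavin3 and 0.0452 for Mpzl2. The call of Mpzl2 was lost when any 1 of 24 arrays was left out, with an adjusted p up to 0.0799. That of Mettl7a1 was lost when any 1 of 11 arrays was left out, with an adjusted p up to 0.0607.

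A single mouse stood far from the other 7 of its group in 20 of 160 groups of values examined, where about 1 in 20 is flagged by chance. CBA/J CR replicate 5 accounted for 6 of them: the epididymis list mean (10.54), the adipocyte list mean (11.83), Adam23 (7.92), Dusp4 (8.03), Ivns1abp (11.11) and Mettl7a1 (11.50). CBA/J CR replicate 6 was high for Olfr1388 (7.71). CBA/J control replicate 2 was high on the macrophage list mean (10.30), the collagens and matrix list mean (10.13) and Lum (10.62), and low on the adipocyte list mean (12.28) and for Clmn (8.47). C3H/HeJ CR replicate 4 was low on the fatty acid synthesis list mean (10.24), for Ncan (9.97) and for Prune2 (9.09), and high for Sfrp5 (10.76). C3H/HeJ control replicate 2 was low for Mest (11.65) and high for Mpzl2 (8.96) and Phf1 (9.42), and C3H/HeJ control replicate 3 was low on the adipocyte list mean (12.28).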

How the results depend on the processing

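Main count: 406 genes with different responses, 322 lower and 84 higher in CBA/J. It was 627 without CBA/J CR replicates 5 and 6, 631 when only genes above the median signal were tested (fewer genes adjusted for), and 857 with array weights, which also raised the genes changed in C3H/HeJ to 5209; the cause of the rise with weights was not tested. Leaving out 1 array at a time gave between 261 and 677 genes, between 4407 and 6016 changed in CBA/J and between 2451 and 3615 changed in C3H/HeJ. Other settings gave 313 (arrays centred on the median) to 469 (trend and robust variance). 1 model of all 14 groups gave 359 genes, of which 265 were among the 406, and without CBA/J CR replicates 5 to 8, chosen after seeing the data, 359, of which 243 were. The share with a higher response in CBA/J was 20.7%, and 31.5% after quantile normalization. With the replicate number as a block there were 408 genes, 358 of them among the 406; same-numbered mice deviated together with a mean r between 0.009 and 0.223 over the 6 pairs of groups and below 0 in some, so the block is no true pairing. No called difference of a named gene changed sign under any setting. In the model of 14 groups Acsm5, Dpt, Dusp4, Gypc, Igfbp4, Mest, Scd2, Sc5d, Tmem45a and Vsig4 missed the threshold, as did Sfrp5, Mpzl2, Idh1, Nmnat3 and Pi16. With 8 mice a group, precision is set by the number of arrays; a difference of 0.5 was often missed in simulated data.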

Other observations

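A few genes outside the groups described above also passed the test. Among 27 genes of the heat shock and unfolded protein response, Chac1, an enzyme that degrades glutathione, had a higher response in CBA/J (0.59, adjusted p = 0.0153) and the chaperone Hspa8 a lower one (-0.34, adjusted p = 0.0161). Thy1, a surface protein of T cells and fibroblasts, had a lower response in CBA/J (-0.68, adjusted p = 0.00622). It was the 1 gene of 12 on the T cell list to pass, against 2.04% of all genes. Mrps6 was the 1 gene of the mitochondrial ribosome to pass (-0.69, adjusted p = 0.000745). On the imprinted list, Peg3 changed by -1.50 in CBA/J and -2.20 in C3H/HeJ, and its difference of 0.70 did not pass (adjusted p = 0.234). None of 13 glucocorticoid target genes passed with all arrays, and their median difference was 0.35. Without CBA/J CR replicates 5 and 6 the median was 0.12. In that fit 1 of the 13 passed, with a lower response in CBA/J, against 2.29% of all genes.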
